A study of Mus musculus with 12 samples.

Results

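Immediate early genes are transcribed within minutes of a growth factor, cytokine or stress signal, from factors already present in the cell, and their mRNAs are usually short-lived. Fos and Jun proteins pair into AP-1, a transcription factor, while Egr1 is a zinc finger factor and Dusp1 a phosphatase that switches off the MAP kinases from which such signals come. In erythroid precursors such genes are known to answer to erythropoietin and Kit ligand, both of which were in the culture medium. The members were 10 genes chosen by name: Fos, Fosb, Jun, Junb, Jund, Egr1, Ier2, Ier3, Atf3 and Dusp1. All 10 were found among the 25097 genes of each table, and 9 had enough reads to be tested.

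RNA sequencing had been done on G1E-ER-GATA-1 cells, mouse erythroid precursors without endogenous GATA-1 that carry GATA-1 fused to the estrogen receptor ligand-binding domain, so that beta-estradiol switches the fusion on. The 4 groups held 3 libraries each. They were mutant cells given 1 µM estradiol and 1 mM 5-aminolevulinic acid (5-ALA) for 48 h, mutant cells given estradiol alone for 48 h, wild-type (WT) cells given estradiol for 48 h, and untreated WT cells. The mutant cells carry changes in cis-elements of Alas2, the erythroid gene for the enzyme that makes 5-ALA, and are described as double mutants. Cells of every group were grown with erythropoietin, Kit ligand-conditioned medium and puromycin. Mutant cells without estradiol were not analysed here, so a difference between mutant and WT cells that existed before estradiol cannot be told apart from one that arose during maturation. The labels do not say whether the replicates were separate cultures or how many clones the mutant libraries come from, so that p-values measure the spread between these libraries, which may be technical.

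The libraries held between 20309085 and 43548387 expected counts. Levels are given below as CPM, counts divided by a common measure of library size, and comparisons between genes use TPM, which also takes transcript length into account. Alas2, the targeted gene, had 12.4, 12.5 and 12.1 CPM in mutant cells with 5-ALA and 9.48, 8.24 and 5.20 CPM in mutant cells without it, against 4309, 4290 and 4280 CPM in WT cells with estradiol. It followed the labels in every library. All 7 erythroid markers on the list were tested, and their summed level lay between 7380 and 8221 CPM in mutant cells with 5-ALA, 4366 and 4508 CPM in mutant cells without it and 10500 and 10660 CPM in WT cells with estradiol, against 524.6 to 548 CPM in untreated WT cells. The 6 mast cell markers summed to at most 0.486 CPM in mutant cells and to 1.29 to 1.53 CPM in WT cells with estradiol, against 134 to 149.7 CPM in untreated WT cells, with Mcpt8, Fcer1a and Tpsb2 at 0 in all 12 libraries. Cpa3 alone averaged 139.4 CPM in untreated WT cells. Megakaryocyte markers, none of the 6 at 0 throughout, summed to 70.7 to 71.5 CPM in WT cells with estradiol against 97.4 to 102 CPM without, and to 41.1 to 41.9 CPM in mutant cells with 5-ALA and 40.3 to 41.0 CPM in those without it. These sums hide opposite movements. With estradiol in WT cells Gp1ba (44 against 10.04 CPM) and Gp9 rose, while Pf4 (2.375 against 28.39 CPM) and Itga2b fell. With 5-ALA Pf4 (6.02 against 2.06 CPM) and Itga2b were higher and Gp1ba (22.9 against 29.72 CPM) was lower. Stromal markers summed to at most 0.753 CPM in treated cells of any kind, against 11.3 to 11.7 CPM in untreated WT cells, where Pdgfrb alone averaged 11.46 CPM. The 7 granulocyte and macrophage markers summed to 0.979 CPM at most, with S100a8 and S100a9 at 0 throughout, and the 5 lymphocyte markers to 0.715 CPM at most. The part of other cell types in the results below was not tested. In such bulk samples, a smaller share of cells that express a gene and less RNA per cell cannot be told apart.

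The sequences just upstream of 4 members are shown because these genes parted in the data: Jun, Junb and Dusp1 were among those that rose with estradiol and Fos was not. They are the 250 bases before the RefSeq start on the GRCm38.p6 build, on the gene's own strand, and capitals mark matches to the motifs searched.
Jun, chr4:95052223-95052472, minus strand: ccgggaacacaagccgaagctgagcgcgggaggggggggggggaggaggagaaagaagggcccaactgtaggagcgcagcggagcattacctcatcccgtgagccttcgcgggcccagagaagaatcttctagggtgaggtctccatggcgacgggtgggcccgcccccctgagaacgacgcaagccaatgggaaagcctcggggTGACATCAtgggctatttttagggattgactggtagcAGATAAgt
Dusp1, chr17:26508473-26508722, minus strand: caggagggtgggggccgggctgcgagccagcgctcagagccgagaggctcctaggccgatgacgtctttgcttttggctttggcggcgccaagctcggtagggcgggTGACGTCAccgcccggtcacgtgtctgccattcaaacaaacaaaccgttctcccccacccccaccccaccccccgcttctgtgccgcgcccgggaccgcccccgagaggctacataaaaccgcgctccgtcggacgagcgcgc
Junb, chr8:84978749-84978998, minus strand: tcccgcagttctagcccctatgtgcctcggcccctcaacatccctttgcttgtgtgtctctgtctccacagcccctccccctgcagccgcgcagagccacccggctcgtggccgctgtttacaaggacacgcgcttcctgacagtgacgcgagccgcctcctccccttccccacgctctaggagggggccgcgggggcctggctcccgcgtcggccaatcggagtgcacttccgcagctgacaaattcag
Fos, chr12:85473640-85473889, plus strand: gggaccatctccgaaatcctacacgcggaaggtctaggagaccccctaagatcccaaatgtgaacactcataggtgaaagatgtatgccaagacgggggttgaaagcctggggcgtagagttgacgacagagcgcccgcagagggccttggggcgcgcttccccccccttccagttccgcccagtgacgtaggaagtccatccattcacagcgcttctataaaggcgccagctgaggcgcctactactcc

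Both strands were searched for TGACNTCA, the form bound by CREB/ATF and Jun-containing dimers, and for the AP-1 form TGANTCA. The same search covered AGATAA, a form bound by GATA factors, GCGNGGGCG, the form bound by EGR proteins, and the CArG box bound by SRF. The Jun sequence held TGACATCA from 45 to 38 bases and AGATAA from 8 to 3 bases before the start, and the Dusp1 sequence held TGACGTCA from 143 to 136 bases before it. No match overlapped another. Of 32851 windows of this length in the same table, 7.49% held TGACNTCA, 9.99% AGATAA, 6.75% TGANTCA, 4.70% GCGNGGGCG and 1.47% a CArG box. These letters were not in the windows of Junb and Fos. Fosb had a single match, to GCGNGGGCG, and the windows listed for Ier3, Jund and Atf3 had none, although the RefSeq start of Jund lies 1210 bases before its GENCODE start. The GENCODE genes of Dusp1 and Atf3 begin 53656 and 34706 bases farther upstream than the RefSeq starts used here. Windows of 8 of the 10 members were searched, those of Egr1 and Ier2 not among them. Bases farther upstream than these windows were not searched, so a missing match holds for the windows only. Forms of the GATA motif other than AGATAA were not searched, and the Atf3 window held TGATAA and AGATAG. A match describes letters and says nothing about binding in these cells.

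The mRNAs also differed in AU-rich elements, sequences of the 3′ UTR through which proteins such as that of Zfp36 speed mRNA decay. In the longest coding transcript of GENCODE M21, the pentamer ATTTA was found 4 times in the 3′ UTR of Fos, 4 times in that of Jun, 4 times in that of Dusp1, 5 times in that of Ier3 and 0 times in that of Ier2. Per kilobase of 3′ UTR, Ier3 had 8.16, Dusp1 5.80, Fos 4.91, Junb 4.12 and Jun 3.24, against a median of 1.28 over the 11083 tested genes with such a UTR. Atf3 had 2.53, Jund 1.88, Egr1 1.64 and Fosb 0.466. Ier3 and Ier2, which fell with estradiol as described below, stood at opposite ends of this range.

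The comparison of estradiol-treated with untreated WT cells asks which members answer to activation of the GATA-1 fusion. The 3 Jun genes, Egr1 and Dusp1 rose, by 7.48-fold to 62.1-fold, while Ier2 fell 8.43-fold and Ier3 1.40-fold. Fos and Fosb were low in both groups, and neither passed the test. Of the 9 tested members 5 were higher and 2 lower, where 43.3% of all 12115 tested genes were higher, 46.4% lower and 89.7% called in either direction. The members' median log2 fold change was 2.90, beside -0.03 over all tested genes. With so many genes called, the counts of calls are near what the whole table gave, and the sizes carry the description.

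Jun (ENSMUSG00000052684, mm10 chromosome 4, 95049034 to 95052222, minus strand, protein-coding), the founding member of the Jun family, had 181, 179 and 194 CPM in WT cells with estradiol, against 3.30, 2.74 and 2.77 CPM in untreated WT cells. The groups lay far apart, and the log2 fold change was 5.96 (SE 0.142, adjusted p = 9.81e-11 in the edgeR quasi-likelihood test). In size it lay beyond 4.55, the absolute log2 fold change that 95% of tested genes did not exceed. Junb (chromosome 8, 84974484 to 84978718, minus strand), a Jun protein with weaker activation of AP-1 sites, had 88.7, 90.0 and 98.3 CPM with estradiol, against 13.9, 9.84 and 8.47 CPM in untreated cells. Its log2 fold change was 3.08 (SE 0.232, adjusted p = 1.16e-06). Jund (chromosome 8, 70698949 to 70700616, plus strand), which most cells express without a stimulus, had 122, 122 and 139 CPM with estradiol, against 9.75, 7.56 and 7.60 CPM without. Its log2 fold change was 3.92 (SE 0.254, adjusted p = 3.58e-07). For all 3 Jun genes every estradiol library stood above every untreated one.

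Egr1 (chromosome 18, 34859823 to 34864984, plus strand) was the member with the highest TPM in treated cells of all kinds. It had 229, 229 and 230.5 CPM in WT cells with estradiol, against 32.4, 29.0 and 30.1 CPM in untreated cells, a log2 fold change of 2.90 (SE 0.0332, adjusted p = 3.81e-34). The 3 estradiol libraries differed by a ratio of 1.01 between highest and lowest. Dusp1 (chromosome 17, 26505590 to 26562128, minus strand) had 33.6, 34.5 and 35.3 CPM with estradiol, against 3.90, 3.51 and 3.77 CPM without (log2 fold change 3.20, SE 0.0660, adjusted p = 1.33e-27). Centred on their own means, Egr1 and Dusp1 were the most alike pair of members over the 12 libraries, with a root mean square difference of 0.118 in log2 CPM.

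Ier2 (chromosome 8, 84661331 to 84662852, minus strand), a nuclear protein induced by growth factors, went the other way. It had 3.98, 3.58 and 3.87 CPM in WT cells with estradiol, against 34.1, 32.6 and 29.7 CPM in untreated cells, a log2 fold change of -3.08 (SE 0.0865, adjusted p = 4.1e-24). Ier3 (chromosome 17, 35821684 to 35822923, plus strand), which modulates cell survival and ERK signalling, had 3.04, 3.58 and 3.78 CPM with estradiol, against 5.17, 4.37 and 4.80 CPM without. It fell by 0.48 on the log2 scale (SE 0.115, adjusted p = 0.000319), and its groups did not overlap either.

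Fos (chromosome 12, 85473890 to 85477273, plus strand), the usual partner of Jun proteins, had 0.946, 1.124 and 0.990 CPM with estradiol, against 0.800, 1.103 and 0.924 CPM without, and the groups overlapped. Behind these levels stand 84 counts with estradiol and 95 without, and the scaled ratio was 1.11 (exact 95% interval 0.820 to 1.51). The log2 fold change was 0.14 (SE 0.262, adjusted p = 0.614). Fosb (chromosome 7, 19302696 to 19310051, minus strand) had 57 counts with estradiol and 53 without, and the scaled ratio was 1.35 (interval 0.915 to 2.01, adjusted p = 0.148 in the edgeR test). Atf3 (chromosome 1, 191170296 to 191218039, minus strand), a stress-induced member of the wider family, was under the filter, with 1 count in a single WT library with estradiol and 0 in the other 11. A count of 0 allows up to 0.148 CPM in the shallowest library and up to 0.0689 CPM in the deepest. Intervals and limits of this kind cover counting error only.

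**Figure D1:**
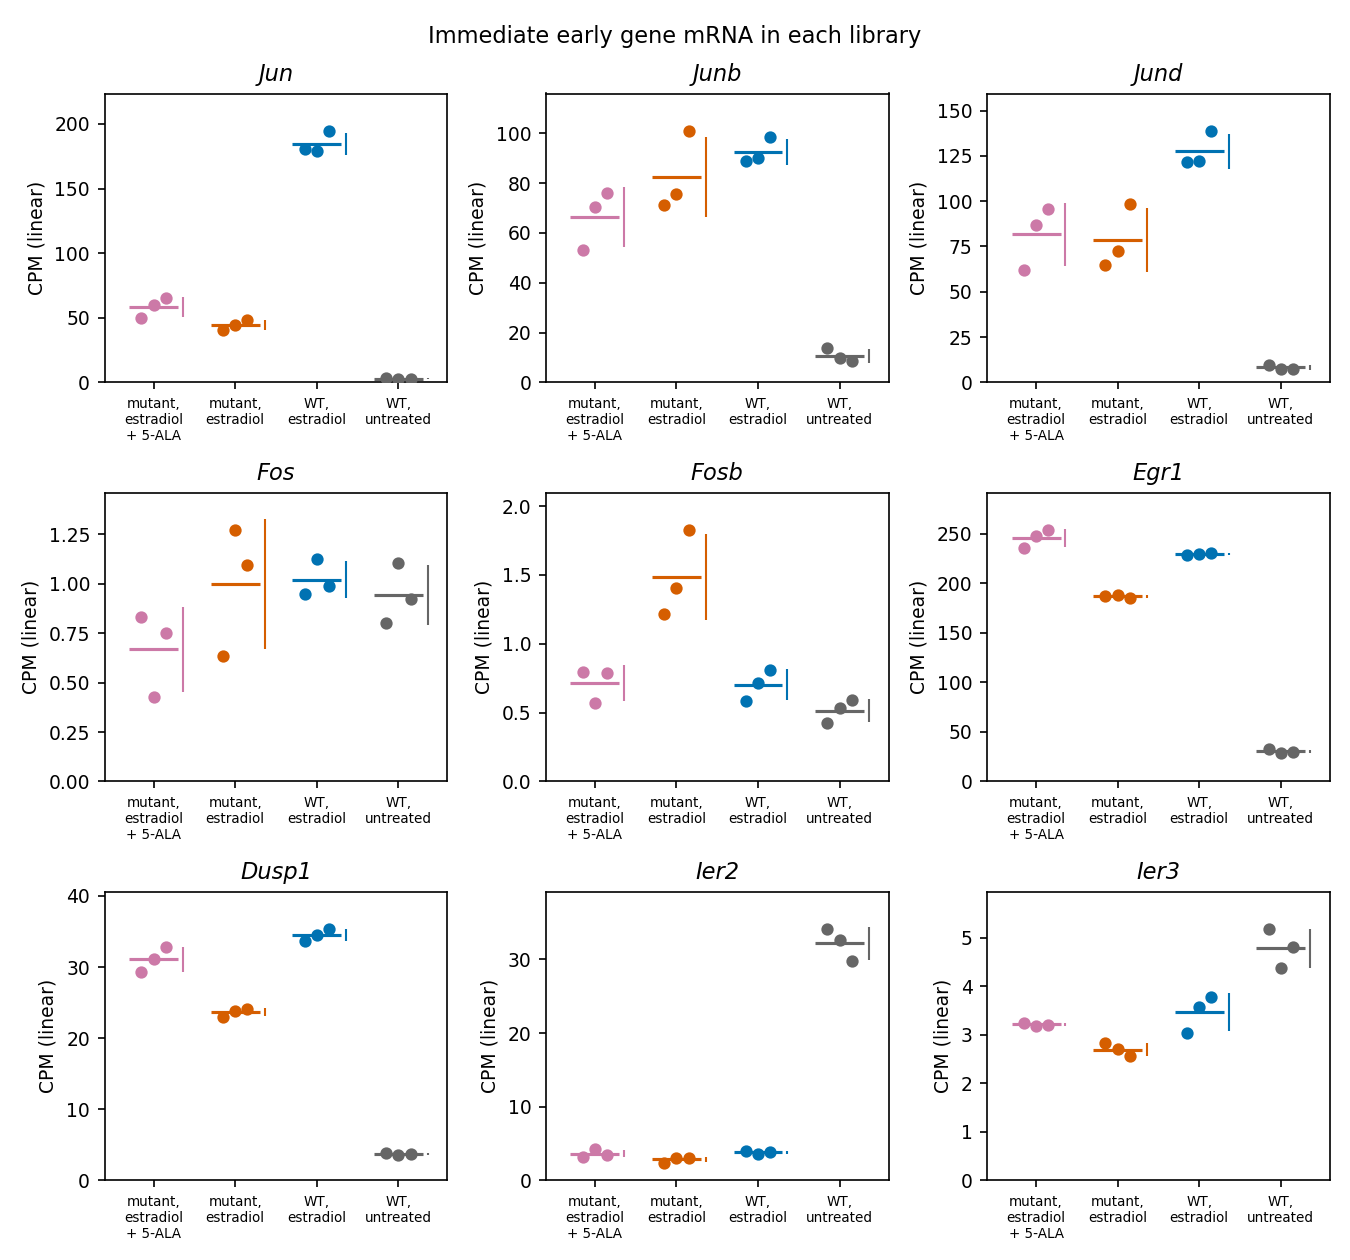
Each panel shows 1 of the 9 tested members, with CPM on a linear axis that starts at 0, a point for each library, a horizontal line for the mean of 3 libraries and a vertical bar for ± 1 SD. The Jun genes, Egr1 and Dusp1 are lowest in untreated WT cells and Ier2 is highest there, and Jun lies at 40.4 to 48.2 CPM in mutant cells with estradiol against 179 to 194 CPM in WT cells with estradiol.

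The makeup of the Jun family shifted along with its level. Summed over Jun, Junb and Jund, the TPM averaged 234 ± 13.9 in WT cells with estradiol and 18.1 ± 3.91 in untreated WT cells (SD, n = 3 each). Jun held 37.9 ± 0.501% of that sum with estradiol and 9.61 ± 1.03% without, while Junb held 33.2 ± 0.243% and 60.4 ± 3.16%. Jund held 29.0 ± 0.498% with estradiol and 30.0 ± 2.15% without. Summed over Fos, Fosb, Fosl1 and Fosl2, the Fos family reached 1.22 ± 0.161 TPM with estradiol and 3.51 ± 0.238 TPM in untreated cells. Fosl1, another Fos family gene, held 8.97 ± 0.324% of this with estradiol and 63.4 ± 8.10% without.

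By TPM, the members in WT cells with estradiol followed the order Egr1 (115), Jun (88.5), Junb (77.6), Jund (67.8), Dusp1 (29.6), Ier3 (4.82), Ier2 (3.89), Fos (0.820) and Fosb (0.287), with Atf3 at 0 in all libraries but 1. The ranges of neighbours in this order did not overlap, although Junb and Jund came close, at 74.0 to 82.7 and 64.4 to 73.8 TPM. In untreated cells the order was Ier2 (40.1), Egr1 (18.6), Junb (11.02), Ier3 (8.11), Jund (5.39), Dusp1 (3.62), Jun (1.72), Fos (1.03) and Fosb (0.257). Here Junb and Ier3 overlapped, at 8.53 to 14.2 and 7.57 to 8.75 TPM.

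Genes with related roles moved in both directions. Of 30 other primary response genes, which like the members need no new protein for their induction, 22 were tested. Of these 13 rose and 7 fell, and the median log2 fold change was 0.87, beside -0.03 over all tested genes. Btg2, an antiproliferative gene, rose to 2804 CPM in WT cells with estradiol against 11.7 CPM in untreated cells. Zfp36, whose protein binds AU-rich elements, rose to 136 CPM against 4.08 CPM, and Ppp1r15a, a regulatory subunit of protein phosphatase 1, to 1365 CPM against 42.1 CPM (log2 fold changes 7.90, 5.04 and 5.02). Among those that fell were Klf10 and Myc, named after their values were seen (log2 fold changes -4.28 and -1.98). Of the 17 genes of the MAP kinase cascade 16 were tested, 9 rose and 6 fell. Mapk3, which encodes ERK1, rose by a log2 fold change of 2.39, the ERK kinase gene Map2k2 by 1.74 and the kinase gene Rps6ka4 by 1.73.

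SRF, which with its cofactors drives many immediate early genes, had all 6 members of its list tested, of which 4 rose and 2 fell. Srf itself, named after its values were seen, fell to 13.3 CPM against 36.9 CPM (log2 -1.47). The cofactor gene Mrtfa rose (log2 1.68) and its relative Mrtfb fell (-1.49), and Elk3, a partner of SRF, rose (1.55). Among 8 other MAP kinase phosphatases only Dusp16 and Dusp7 were tested. Dusp16 rose to 186 CPM against 17.6 CPM, and Dusp7 fell to 0.883 CPM against 16.7 CPM. Of the 5 EGR family and corepressor genes, Egr2, Egr3 and Egr4 were under the filter, Nab1 rose (log2 1.13) and Nab2 fell (-1.68). Of 8 other AP-1 genes 3 were tested: Atf2 rose (1.36), Fosl1 fell (-4.00), and Atf7, named after its values were seen, had -0.08 and was not called.

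Of 9 factors that act on AU-rich elements 5 rose and 4 fell. Beside Zfp36, the decay factor gene Hnrnpd fell (log2 -2.31) and Auh rose (1.42). Heat shock genes rise with many cell stresses. Of 7 tested, 6 fell and 1 rose, which was Dnajb1, named after its values were seen. Hspa1a, Hspa1b and Hspb1 were under the filter, and the part of cell stress in the Jun gene results was not tested. Among those that fell were Hspd1 at -3.73, Hsp90ab1 at -3.37 and Hspe1 at -2.97.

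By the rule of smallest root mean square difference in centred log2 CPM over the 12 libraries, the genes most like Jun were Neil2, a DNA repair glycosylase gene (0.204), Cfap53, a gene of ciliary proteins (0.262), and Tcp11l2 (0.331). Neil2 had 65.9 CPM in WT cells with estradiol and 1.26 CPM in untreated cells. Those most like Jund were the insulin receptor substrate gene Irs2 (0.176), the apoptosis gene Bbc3 (0.191) and Blvrb, which encodes biliverdin reductase B (0.196).

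**Figure D2:**
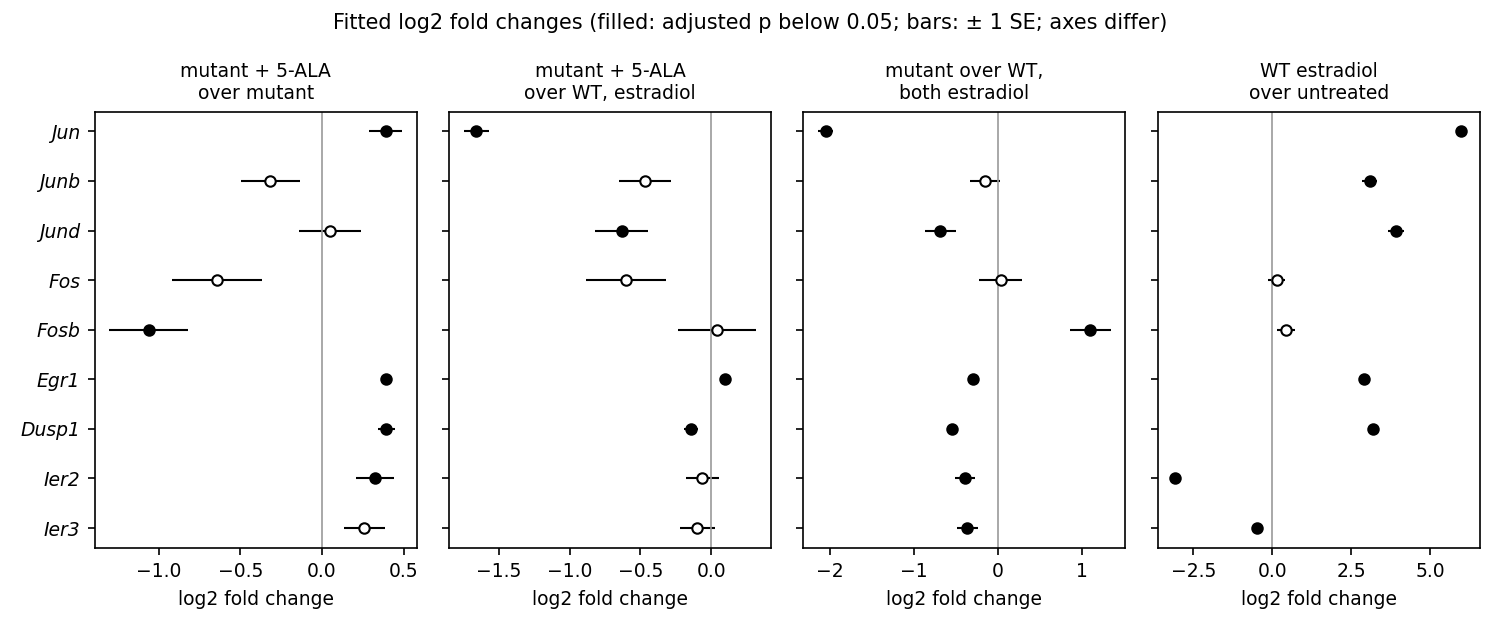
Points give the log2 fold change of each tested member in 4 comparisons, as named above each panel, with bars of ± 1 SE and filled points for adjusted p below 0.05. The horizontal axes differ: values run to 5.96 for Jun with estradiol in WT cells and to -2.05 for Jun in mutant against WT cells. They lie between -1.06 and 0.40 in mutant cells with against without 5-ALA. In mutant cells with 5-ALA against WT cells they run to -1.66 for Jun.

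The comparison of mutant with WT cells, both with estradiol, asks what differs when maturing cells lack Alas2 expression. Jun was 4.13-fold lower in mutant cells, and Jund, Dusp1, Ier2, Ier3 and Egr1 were lower by 1.23-fold to 1.60-fold. Fosb was 2.15-fold higher, and Junb and Fos did not pass the test. Of 9 tested members 1 was higher and 6 lower, where 35.1% of all tested genes were higher, 33.6% lower and 68.8% called in either direction. Of all genes called, 51.1% were higher in the edgeR fit and 70.7% on the log2(TPM + 1) scale. The members' median log2 fold change was -0.36, beside -0.01 over all tested genes, whose median size without regard to direction was 0.35.

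Jun had 40.4, 44.3 and 48.2 CPM in mutant cells, against 181, 179 and 194 CPM in WT cells, without overlap (log2 fold change -2.05, SE 0.0926, adjusted p = 3.89e-08 in the edgeR test). In size this lay beyond 1.65, the absolute value that 95% of tested genes did not exceed. Jund had 64.8, 72.4 and 98.4 CPM in mutant cells, against 122, 122 and 139 CPM in WT cells. It was called (-0.68, SE 0.184, adjusted p = 0.00946), but the mutant libraries were widely spread. Junb had 71.1, 75.7 and 101 CPM in mutant cells and 88.7, 90.0 and 98.3 CPM in WT cells. Its groups overlapped, with a log2 fold change of -0.15 (SE 0.177, adjusted p = 0.48). Jun therefore held 16.2 ± 1.56% of Jun family TPM in mutant cells and 37.9 ± 0.501% in WT cells, and Junb 52.3 ± 0.700% and 33.2 ± 0.243%.

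Dusp1 had 23.0, 23.8 and 24.1 CPM in mutant cells, against 33.6, 34.5 and 35.3 CPM in WT cells (log2 fold change -0.54, SE 0.0519, adjusted p = 2.05e-10). Egr1 had 188, 188 and 185 CPM in mutant cells, against 229, 229 and 230.5 CPM in WT cells (-0.30, SE 0.0275, adjusted p = 1e-10). Both sets of libraries were tight and did not overlap. The size for Egr1 depended on the processing: over 14 alternatives it ran from -0.32 to -0.10, though it was called in each. Its mean TPM was 107 in mutant and 115 in WT cells. Ier2 had 2.43, 3.07 and 3.04 CPM in mutant cells, against 3.98, 3.58 and 3.87 CPM in WT cells (-0.39, adjusted p = 0.00457). Ier3 had 2.82, 2.70 and 2.56 CPM in mutant cells, against 3.04, 3.58 and 3.78 CPM in WT cells (-0.36, adjusted p = 0.0129).

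The calls of Ier2 and Ier3 were lost on the TPM scale, and that of Ier3 also in DESeq2 and without WT estradiol replicate 2 or 3. Adjusted p-values over 14 alternatives ran from 0.00307 to 0.107 for Ier2 and from 0.00612 to 0.156 for Ier3.

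Fosb was the only member called higher. It had 1.22, 1.41 and 1.83 CPM in mutant cells, against 0.587, 0.715 and 0.810 CPM in WT cells (log2 fold change 1.103, SE 0.245, adjusted p = 0.000226). The levels rest on 147 counts over the mutant and 57 over the WT libraries, for a scaled ratio of 2.18 (exact 95% interval 1.59 to 3.01). Every mutant library stood above every WT library. Fos had 0.632, 1.271 and 1.095 CPM in mutant cells and 0.946, 1.124 and 0.990 CPM in WT cells, from 105 and 84 counts. The scaled ratio was 1.05 (interval 0.784 to 1.42), and the mutant libraries lay on both sides of the WT ones.

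Among the related lists, 16 of 22 other primary response genes were lower in mutant cells and 4 higher, with a median log2 fold change of -0.33. Sik1, a kinase gene induced by cAMP, had 0.208 CPM in mutant cells against 1.99 CPM in WT cells, Btg2 had 1372 CPM against 2804 CPM, and Klf10, a TGF-beta-induced factor, 0.931 CPM against 1.78 CPM, with overlapping groups. The MAP kinase cascade split into 6 higher and 7 lower of 16, with Rps6ka3 (0.70), Map2k2 (0.65) and the p38 gene Mapk14 (0.63) showing the largest differences. Of the 6 SRF genes 2 were higher and 3 lower. Mrtfb had 1.21, Elk3 -0.74 and Mrtfa -0.60. Dusp16 was lower (-0.87), as were Atf2 (-0.85) and, slightly, Atf7 (-0.09), while Nab2 (0.32) and Nab1 (0.28) were higher.

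Of the 9 factors of AU-rich elements 4 were higher and 5 lower in mutant cells. Zfp36l2, a relative of Zfp36, had 49.7 CPM in mutant cells against 162 CPM in WT cells (log2 fold change -1.70), Khsrp was higher (0.59) and Elavl1, which stabilises such mRNAs, lower (-0.51). Of 7 heat shock genes 5 were higher and 1 was lower, with Hspe1 at 0.77, Hspa8 at 0.67 and Hsp90aa1 at -0.57. Whether these differences bear on the members was not tested.

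**Figure D3:**
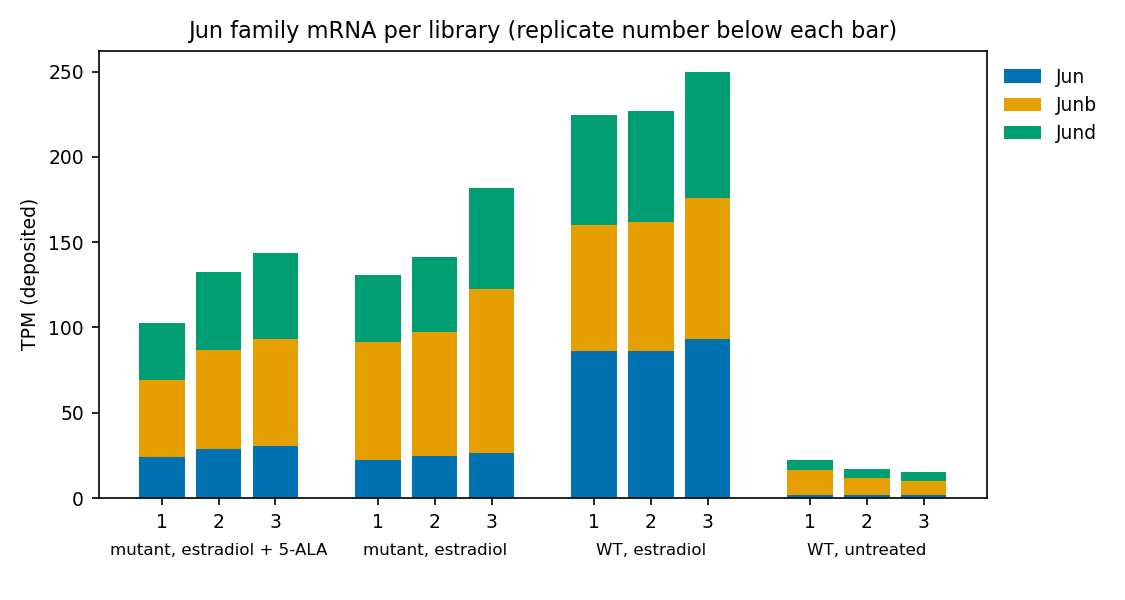
Stacked bars give the deposited TPM of Jun, Junb and Jund in each of the 12 libraries, from 0. The sum averages 126 in mutant cells with 5-ALA, 151 in mutant cells with estradiol and 234 in WT cells with estradiol, against 18.1 in untreated WT cells, and Jun makes up the largest share in WT cells with estradiol.

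The comparison of mutant cells with and without 5-ALA, both with estradiol, asks what changes when the missing precursor of heme is supplied. Egr1, Dusp1, Jun and Ier2 were higher with 5-ALA by 1.253-fold to 1.31-fold, and Fosb was 2.09-fold lower. Fos, Junb, Jund and Ier3 did not pass the test. Of 9 tested members 4 were higher and 1 lower, where 21.6% of all tested genes were higher, 21.0% lower and 42.6% called in either direction. Of all genes called, 50.7% were higher in the edgeR fit and 12.4% on the log2(TPM + 1) scale. The members' median log2 fold change was 0.26, beside 0.01 over all tested genes, whose median size without regard to direction was 0.16.

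Egr1 had 236, 248 and 254 CPM with 5-ALA, against 188, 188 and 185 CPM without (log2 fold change 0.39, SE 0.0273, adjusted p = 7.62e-13 in the edgeR test). Dusp1 had 29.4, 31.2 and 32.9 CPM with 5-ALA, against 23.0, 23.8 and 24.1 CPM without (0.40, SE 0.0520, adjusted p = 3.26e-07). For both genes the groups stood apart. The sizes depended on the processing, though both genes were called in each of 14 alternatives. They ran from 0.19 to 0.42 for Egr1 and from 0.17 to 0.435 for Dusp1. Fosb had 0.793, 0.567 and 0.785 CPM with 5-ALA, against 1.22, 1.41 and 1.83 CPM without (-1.06, SE 0.241, adjusted p = 0.000633). These are 63 counts against 147, for a scaled ratio of 0.476 (exact 95% interval 0.348 to 0.643).

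Jun had 49.8, 60.03 and 65.1 CPM with 5-ALA, against 40.4, 44.3 and 48.2 CPM without (log2 fold change 0.39, SE 0.101, adjusted p = 0.0135). Ier2 had 3.21, 4.22 and 3.52 CPM with 5-ALA, against 2.43, 3.07 and 3.04 CPM without (0.33, SE 0.117, adjusted p = 0.0255). Both calls were weak: adjusted p-values over 14 alternatives ran from 8.49e-05 to 0.119 for Jun, of which 10 were below the threshold, and from 0.00876 to 0.309 for Ier2, of which 8 were. Without replicate 2 of the 5-ALA group, Jun had an adjusted p of 0.051 and Ier2 of 0.255, and without replicate 1 of the mutant cells given estradiol alone Ier2 had an adjusted p of 0.117, each in the edgeR test.

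Junb had 53.1, 70.2 and 76.0 CPM with 5-ALA, against 71.1, 75.7 and 101 CPM without, with overlapping groups (log2 fold change -0.32, SE 0.181, adjusted p = 0.207). Jund had 62.2, 87.0 and 95.9 CPM with 5-ALA, against 64.8, 72.4 and 98.4 CPM without (0.05, SE 0.190, adjusted p = 0.867). Fos had 0.829, 0.425 and 0.753 CPM with 5-ALA, against 0.632, 1.271 and 1.095 CPM without, from 59 and 105 counts (scaled ratio 0.624, interval 0.446 to 0.866). Its log2 fold change of -0.64 missed the threshold (adjusted p = 0.0612) and passed it without replicate 1 of either group (adjusted p = 0.0399 without that of the 5-ALA cells and 0.0154 without that of the other mutant cells, both by edgeR). Ier3 had 3.25, 3.19 and 3.20 CPM with 5-ALA, against 2.82, 2.70 and 2.56 CPM without, and was not called although its groups did not overlap (0.26, adjusted p = 0.1). Summed Jun family TPM averaged 126 ± 21.1 with 5-ALA and 151 ± 26.8 without, and Jun held 22.1 ± 1.19% and 16.2 ± 1.56% of it (SD, n = 3 each).

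Mutant cells with 5-ALA were also set against WT cells with estradiol. Of 9 tested members 1 was higher and 3 lower. Over all tested genes 33.3% were higher, 29.0% lower and 62.3% called in either direction. The members' median was -0.14 beside 0.01 over all tested genes, whose median size without regard to direction was 0.28. Jun stayed 3.15-fold lower (log2 fold change -1.66, SE 0.0901, adjusted p = 2.01e-07 in the edgeR test), and Jund was lower too (-0.63, SE 0.185, adjusted p = 0.0156). Without replicate 3 of the WT cells Jund had an adjusted p of 0.0527, in a range of 0.00274 to 0.0527 over 14 alternatives. Egr1 was slightly higher (0.10, adjusted p = 0.00227) and Dusp1 slightly lower (-0.14, adjusted p = 0.0152). The call of Dusp1 was lost without the filter on low counts, without WT replicate 3 and without replicate 1 or 2 of the 5-ALA group, within a range of adjusted p from 0.00412 to 0.107 by the alternatives. Junb had -0.47 (SE 0.181, adjusted p = 0.0518) and was called under 6 of 14 alternatives, and its groups did not overlap. Fos had -0.60 (adjusted p = 0.0656), Ier3 -0.10 (adjusted p = 0.511) and Ier2 -0.06 (adjusted p = 0.655). Fosb had 0.04 (SE 0.277, adjusted p = 0.911), and its scaled ratio was 1.04 (interval 0.712 to 1.51). Without WT replicate 3, 2 members were called in place of 4, and in the comparison with and without 5-ALA 3 were called without replicate 2 of the 5-ALA group in place of 5.

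Set side by side for the members called in both, the mutant-WT log2 difference and the change with 5-ALA were -2.05 and 0.39 for Jun, -0.30 and 0.39 for Egr1, -0.54 and 0.40 for Dusp1, -0.39 and 0.33 for Ier2, and 1.103 and -1.06 for Fosb. The other tested members did not all show opposite signs. Jund had -0.68 and 0.05, Ier3 -0.36 and 0.26, Junb -0.15 and -0.32, and Fos 0.04 and -0.64. The mutant libraries without 5-ALA enter both values with opposite sign, so that opposite directions are not independent. With 5-ALA, Jun lay between 49.8 and 65.1 CPM, below all WT libraries, while Fosb, at 0.567 to 0.793 CPM, overlapped them.

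Among the related genes, 9 of 22 other primary response genes were higher with 5-ALA and 4 lower. The kinase gene Plk3 had 1.54 CPM with 5-ALA against 0.497 CPM without, and the growth regulator Myc 80.5 CPM against 39.5 CPM. The orphan nuclear receptor gene Nr4a2 had 2.91 CPM against 5.14 CPM. In WT cells with estradiol Plk3, Myc and Nr4a2 had 1.02, 43.95 and 2.91 CPM. Of 16 MAP kinase cascade genes 6 were higher and 7 lower, with Map2k3 at 0.55, Rps6ka1 at 0.50 and Mapk14 at -0.44. Dusp16 (0.30), Atf2 (0.35), Nab2 (0.35) and Mrtfa (0.42) were higher, and Elk1 (-0.16) and Atf7 (-0.10) lower. Of the factors of AU-rich elements 2 were higher and 4 lower, among them Zfp36l2 (0.49), Zfp36l1 (-0.22) and Khsrp (-0.22). Of the heat shock genes 4 were higher and 2 lower, with Hsp90aa1 (0.48), Hsp90ab1 (0.42) and Hspd1 (0.19) the largest.

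In the comparison of 5-ALA-treated mutant with WT cells, 4 of 22 other primary response genes were higher and 10 lower, with Sik1 at -2.44, Klf10 at -1.35 and Btg2 at -0.92. MAP kinase cascade genes split into 5 higher, among them Rps6ka3 (0.52), Map2k2 (0.49) and Rps6ka1 (0.47), and 7 lower. The SRF list had 2 higher, Mrtfb (1.12) and Elk1 (0.20), and 3 lower, Elk3 at -0.82 among them. Nab2 (0.67) and Nab1 (0.32) were higher, and Dusp16 (-0.57), Atf2 (-0.50) and Atf7 (-0.20) lower. Of 9 factors of AU-rich elements 3 were higher and 4 lower, with Zfp36l2 at -1.21, Zfp36l1 at -0.46 and Elavl1 at -0.39. Of 7 heat shock genes 5 were higher and 1 was lower. The largest were Hspa8 (0.73), Hspe1 (0.66) and Hsp90ab1 (0.61).

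By TPM, the order of members in mutant cells with 5-ALA was Egr1 (122), Junb (55.4), Jund (43.1), Jun (27.8), Dusp1 (26.6), Ier3 (4.44), Ier2 (3.70), Fos (0.580) and Fosb (0.290), and in mutant cells with estradiol alone Egr1 (107), Junb (79.3), Jund (47.8), Jun (24.3), Dusp1 (23.5), Ier3 (4.29), Ier2 (3.33), Fos (0.977) and Fosb (0.690). The ranges of Jun and Dusp1 overlapped in both groups, those of Junb and Jund in cells with 5-ALA, and those of Fos and Fosb in cells without. Jun thus stood below Junb and Jund in both mutant groups, where in WT cells with estradiol it stood above them.

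The Jun genes varied more between libraries of a group than most genes did. In mutant cells with 5-ALA the highest library exceeded the lowest 1.54-fold for Jund, 1.43-fold for Junb and 1.31-fold for Jun, and in mutant cells with estradiol 1.52-fold, 1.42-fold and 1.19-fold. The median over 7685 genes of at least 10 CPM was 1.06 in the 5-ALA group, and 99.6% of them had a smaller ratio than Jund. Jun, Junb, Jund and Dusp1 had their highest value in the same library of each group. It was replicate 3 in every group given estradiol and replicate 1 in untreated WT cells. Jund and Junb transcripts are rich in G and C, at 67.1% and 62.6% in the longest coding transcript against a median of 49.8% over tested genes, while Jun has 55.5% and Dusp1 54.9%.

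Over 244 genes with at least 60% GC and 10 CPM, the median deviation from the group mean moved the same way. It was -0.106 (log2) in replicate 1 of the 5-ALA group, where Jund deviated by -0.37 and Junb by -0.31, and 0.050 in replicate 3 of the mutant cells with estradiol, where they deviated by 0.35 and 0.31. The sign of the deviation was that of the GC-rich genes in 11 of 12 libraries for Jund, 11 for Junb and 10 for Jun. Since deviations are taken from each group's own mean, these signs are not independent, and matching signs were not counted over other genes. The GC-rich set includes members, and its median was only 0.001 in WT estradiol replicate 1. The sign counts therefore cannot show a link to base composition. Between groups, the 241 GC-rich genes that are no members had median log2 fold changes of 0.11 with estradiol, 0.18 in mutant against WT cells and -0.06 with 5-ALA. The part of base composition in the Jun gene results was not tested.

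**Figure D4:**
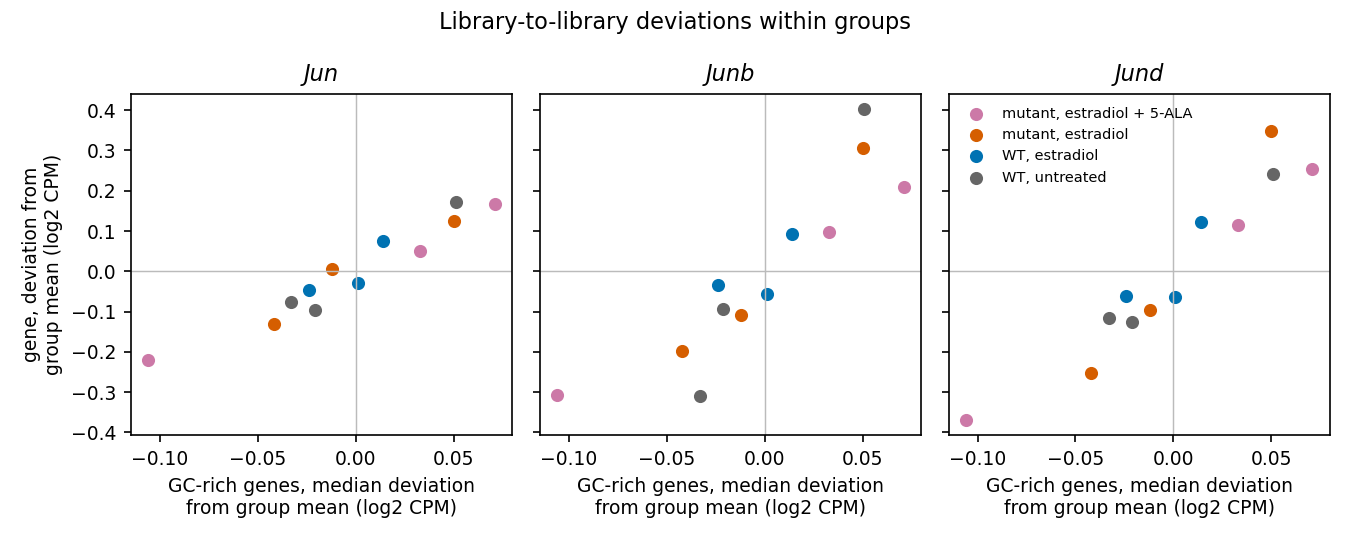
Each point is a library: the horizontal axis gives the median deviation of 244 GC-rich genes from their group means and the vertical axis the deviation of Jun, Junb or Jund from its own, both in log2 CPM. Libraries low for GC-rich genes, such as the 5-ALA library at -0.106, are also low for Jund (-0.37) and Junb (-0.31).

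Some members share bases with other genes in GENCODE M21, and strand use in counting is not given in the sources used here. Exons of Junb share 173 of their 2301 bases with those of Prdx2, a peroxiredoxin gene on the other strand that had 1672 CPM in WT cells with estradiol and 243.7 CPM in untreated cells. In mutant cells Prdx2 had 1768 CPM with 5-ALA and 2043 CPM without. Exons of Jund share 877 of 1668 bases with Gm11175 on the other strand, which had 26.9 CPM with estradiol and 1.52 CPM without in WT cells, and 13.8 CPM with 5-ALA and 13.5 CPM without in mutant cells. Exons of Jun share 232 bases with Junos, not analysed here, and those of Dusp1 share 11 with Ergic1, which had 2.02 CPM with estradiol and 78.9 CPM without. Reads from shared bases may belong to either gene of such a pair, so the levels of Jund and Junb are uncertain, by an amount that was not tested. Prdx2, with the higher level of its pair, had a 6.86-fold increase with estradiol in WT cells beside 8.48-fold for Junb. The deposited tables give Jund a length of 2878 bases, longer than the 1668 bases of its GENCODE M21 transcript, so its base composition and overlap describe the shorter form.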

How the data were processed

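The deposited tables give RSEM expected counts per gene, per the file headers, with reads shared between genes divided by likelihood, and TPM, which the authors' RSEM run scaled for effective length and library size. Per the submitters' processing notes, the build was mm10 and the tools were Bowtie 1.1.1, RSEM 1.2.20 and CASAVA 1.8.2. The sources used here do not give annotation release, read length or strand setting. Symbols came from GENCODE M21, which matched 24746 of 25097 identifiers.

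Expected counts were rounded, filtered with filterByExpr by group (12115 genes kept), and scaled by TMM. The edgeR 4.0.16 model (R 4.3.3, robust option) held a mean for each of the 4 groups and used all 12 libraries. Contrasts were tested with the quasi-likelihood F test, with Benjamini-Hochberg adjustment over all genes, and called at an adjusted p below 0.05. SE was obtained by dividing the size of each log2 fold change by the root of its F. The fit was tested on simulated data. Alternatives used DESeq2 1.42.0 and limma 3.58.1 on log2(TPM + 1) and log2(TPM + 0.1), other filters, the replicate block, the 2 compared groups alone and each library left out.

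Members, gene lists and the naming rule were chosen with earlier results of these data known. From each list up to 3 called genes of at least 1 CPM with the largest change are named. Promoter sequences are RefSeq's, on GRCm38.p6.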

Additional observations from a re-analysis of the deposited data

How the results depend on the processing

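With estradiol in WT cells, 7 members were called under each of the 14 alternatives. Without 1 library at a time, the members called numbered 7 to 7 in that comparison, 6 to 7 in mutant against WT cells, 3 to 6 with 5-ALA and 2 to 5 in mutant cells with 5-ALA against WT cells. The low counts came without replicate 2 of the 5-ALA group and without WT estradiol replicate 3. With the 2 compared groups alone, 3 members were called with 5-ALA in place of 5. With the replicate block the members called were 7, 7, 5 and 4 in the 4 comparisons, as without it, and the block changed no member's call. The numbers were not taken to pair libraries, since deviations of same-numbered libraries correlated between -0.105 and 0.0489 across genes, and not every library correlated best with its own number. Of 504 member values under alternatives, 455 kept their direction and side of the threshold, 22 lost the call, 11 gained it and 16 changed sign, none of these called in the edgeR fit. On the log2(TPM + 1) scale the median over all genes moved to -0.23 with estradiol, 0.12 in mutant against WT cells and -0.15 with 5-ALA. There Junb in mutant against WT cells had 0.017 (0.017 with a pseudocount of 0.1), Fos with estradiol -0.14 (-0.26), and Jund with 5-ALA -0.14 (-0.15), while Junb with 5-ALA passed the threshold (-0.51, adjusted p = 0.0295 by limma, in a range of 0.0295 to 0.568). The other reversals came from leaving out a library. Jund with 5-ALA had -0.06 and -0.02 without replicates 1 and 2 of the mutant cells with estradiol alone, and -0.003 and -0.10 without replicates 2 and 3 of the 5-ALA group, up to 0.243 without replicate 3 of the estradiol-only cells. Fos in mutant against WT cells had -0.009 without WT replicate 1 and -0.18 without mutant replicate 2, up to 0.245 without mutant replicate 1. In mutant cells with 5-ALA against WT cells, Fosb ran from -0.078 without WT replicate 1 to 0.195 without replicate 2 of the 5-ALA group, and Ier2 from -0.16 without that replicate to 0.017 without replicate 1. The cause was not tested. Depth limits Fos, Fosb and Atf3, which rest on 147 counts a group or fewer.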
